A study of Chenopodium quinoa with 15 samples.

Results

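The basic helix-loop-helix (bHLH) transcription factors of quinoa (Chenopodium quinoa, variety NL-6) are described here across tissues and after salt. Members were the genes whose deposited protein match carried bHLH in its title, in any case, and whose text held none of the words SPATULA, phytochrome or MYB-related. The rule found 98 of 58522 annotated genes, and the excluded words removed 0 genes. The rule used no expression value. It depends on titles, and 75.4% of all genes had no match or a match to a protein with no described function. Factors of the family that are titled by another name were therefore not members. Values of 20 such factors, found by a set of title words that is not complete, are given apart. Genes titled SPATULA-like were in neither set and stood among the pistil markers.

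Proteins of the bHLH family bind DNA as dimers, with a basic region that contacts short E-box motifs and a helix-loop-helix region that joins the partners. In plants they form one of the large families of transcription factors, and in Arabidopsis their numbered members include starters of root hairs, regulators of iron uptake, repressors of jasmonate responses, partners of cryptochromes and builders of stomata and vascular tissue. The numbers used below are those of the matched titles, most of which end in "-like", and the roles are those known in Arabidopsis.

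RNA-seq was run on 5 groups of 3 libraries each. NaCl leaves came from seedlings aged 14 days and kept for 8 hours in NaCl at 400 mM, and leaves came from seedlings of the same age given water. Roots were taken from seedlings aged 2 days by the sample labels and 3 days by the growth description. They were grown in the dark on medium. Stamens and pistils were dissected from freshly opened flowers of plants in soil. All plants were NL-6 without a transgene or mutation named in the labels, and each replicate was a pool of several seedlings or many organs. Root thus differed from the other tissues also in age, light and growth medium, which cannot be told apart from tissue. By the growth description the flowering plants were weeks older than the leaf seedlings, so age cannot be told apart from tissue there either. In whole organs, fewer cells of a type and less RNA per cell cannot be told apart either.

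Counted reads ranged from 12499775 to 17019602 per library, and no pair of replicates was identical. Levels are CPM, the reads of a gene relative to the library total, scaled with edgeR's TMM factors, which take most genes as unchanged. The factors were 0.477 to 0.494 in stamen and 1.73 to 1.78 in pistil, so that scaling by the total library size moved the median log2 fold change of all genes from -0.19 to -2.02 for stamen over pistil. Markers listed by title matched the labels for leaf, where 27 of 28 tested photosystem and chlorophyll-binding genes were highest, and for pistil, where 7 of 11 carpel genes were. The root list, of peroxidases and Casparian strip genes, had 34 of 58 highest in root, and its summed level was 4700 to 5874 CPM in root, against 38560 to 41950 CPM in stamen. The stamen list, of pollen and polygalacturonase genes, had 25 of 57 highest in stamen and 10 in root. CPM compares libraries within a gene, and the deposited FPKM values, which are divided by gene length, are used to compare genes.

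The 98 genes carried 35 different bHLH numbers and lay on 17 of 18 chromosomes, with 1 on an unplaced contig. Proteins of beet, a relative of quinoa, were the match of 95 of them. Quinoa is an allotetraploid, and 86 members shared their matched protein with another member, among them 26 pairs on different chromosomes that are candidate copies from the parental genomes. In all, 35 members stood in 13 runs with neighbours under 200 kb apart. The longest run, on chromosome 7 from 72293330 to 72356521, held 6 genes of the bHLH18, bHLH19 and bHLH25 kind, and a run of 4 such genes lay on chromosome 1 from 497309 to 531913. Runs of 4 and 3 bHLH101 genes lay on chromosome 15 from 60668019 to 60770932 and on chromosome 6 from 77241575 to 77374523. Coordinates are those of the deposited NL-6 annotation. The counting of reads that match several near-identical members, and the use of strand, were not stated in the sources read here. The share of reads each such member received is therefore uncertain.

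Reads of the most members were found in root. Over all genes, the paper counted the most with reads in all replicates in pistil, followed by root, leaf and stamen. Shares of all genes at the limits used here are not given, and counts at 1 read carry no scaling. At least 1 read in each of 3 replicates was found for 52 members in NaCl leaves and 48 in leaves, and for 72 in root, 42 in stamen and 56 in pistil. All replicates reached 1 CPM for 38 members in NaCl leaves, 35 in leaves, and for 57 in root, 27 in stamen and 39 in pistil. Members read in all 4 untreated tissues numbered 33, and 15 were read in all replicates of no untreated tissue, of which 8 had 0 reads in all 15 libraries. The members read in all replicates of 1 tissue with 0 reads in the other 3 were 8 for root, 3 for pistil, 2 for leaf and 1 for stamen. For the family as a whole, summed FPKM was 452.5 to 534.3 in NaCl leaf libraries and 432.5 to 457 in leaf, 1837 to 1947 in root, 114.7 to 142.5 in stamen and 1402 to 1472 in pistil. These sums are relative to the total library size and carry no TMM factor, so they are not on the scale of the CPM values. The TMM factors were lowest for stamen libraries and highest for pistil libraries. With them, the sum of stamen would lie nearer to those of root and pistil. Sums scaled that way are not given here. Single genes carried much of the root and pistil sums, since 1 bHLH19 gene averaged 732 FPKM in root and 1 bHLH3 gene 435 FPKM in pistil.

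The tissue comparison asked which members were higher in 1 organ than in each of the others. A member counted as highest in a tissue where it exceeded each other tissue at an adjusted p under 0.05 (edgeR quasi-likelihood test, Benjamini-Hochberg over all genes tested) with a log2 fold change no smaller than 1. Enough reads for the test were found for 68 of 98 members, and 30 were not tested. Of the 68, 27 (39.7%) were highest in root, against 10.4% of the 35954 genes tested. Some of the 27 had 0 reads in leaf, stamen and pistil, among them CqNL-6_000752, CqNL-6_019672, CqNL-6_051488, CqNL-6_032675 and CqNL-6_050900. Root reads alone brought these into the test, so their part in this share and in the medians below says little beyond those reads. How many of all genes called in root entered in the same way is not given here. Pistil was highest for 4 (5.88%), against 6.03% of all genes, stamen for 4 (5.88%), against 20.0%, leaf for 3 (4.41%), against 11.1%, and 30 members were called in no tissue. The median log2 fold change of the members was 3.32 for root over stamen and 1.5 for root over pistil, against 0.19 and -0.16 over all genes. With members at 0 reads in 1 tissue set to their bound, it was 2.85 for root over stamen and 1.5 for root over pistil.

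**Figure D1:**
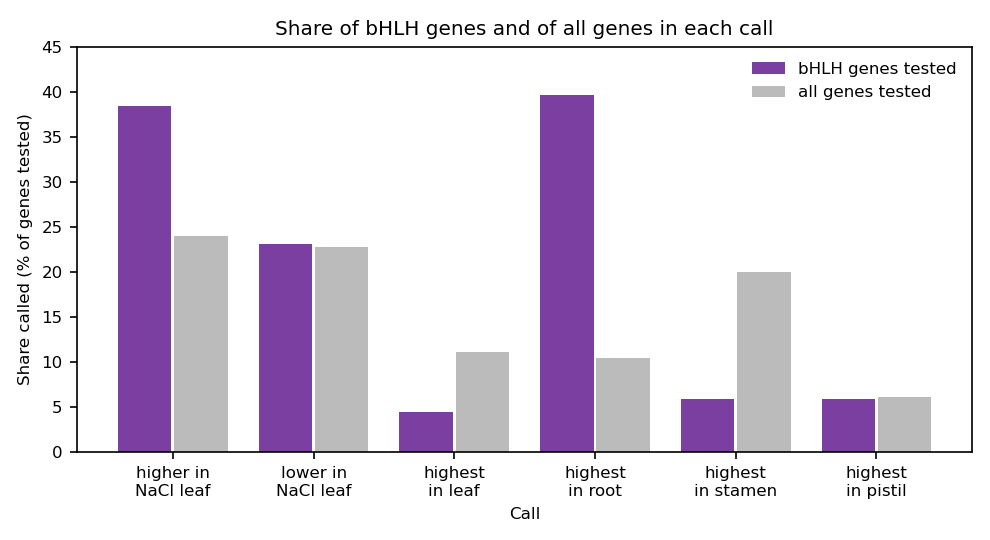
Share of genes in each call, in percent of genes tested, with bHLH genes as the left bar and all genes as the right bar of each pair. The bHLH share is 39.7% for highest in root against 10.4% of all genes, and 38.5% for higher in NaCl leaf against 24.0%. Some bHLH genes in the root bar entered the test through root reads alone.

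Of these counts, those of leaf, stamen and pistil depended on scaling. With the total library size 28 members (41.2%) were highest in root, against 12.6% of all genes tested, 15 (22.1%) in pistil, against 16.7%, 2 (2.94%) in stamen, against 9.14%, and 1 (1.47%) in leaf, against 7.70%. In root, 26 of the 27 members kept the call under each of 17 other fits, and bHLH143 (CqNL-6_002278) fell under the minimum fold with the total library size, at a log2 fold change of 0.81 over pistil.

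**Figure D2:**
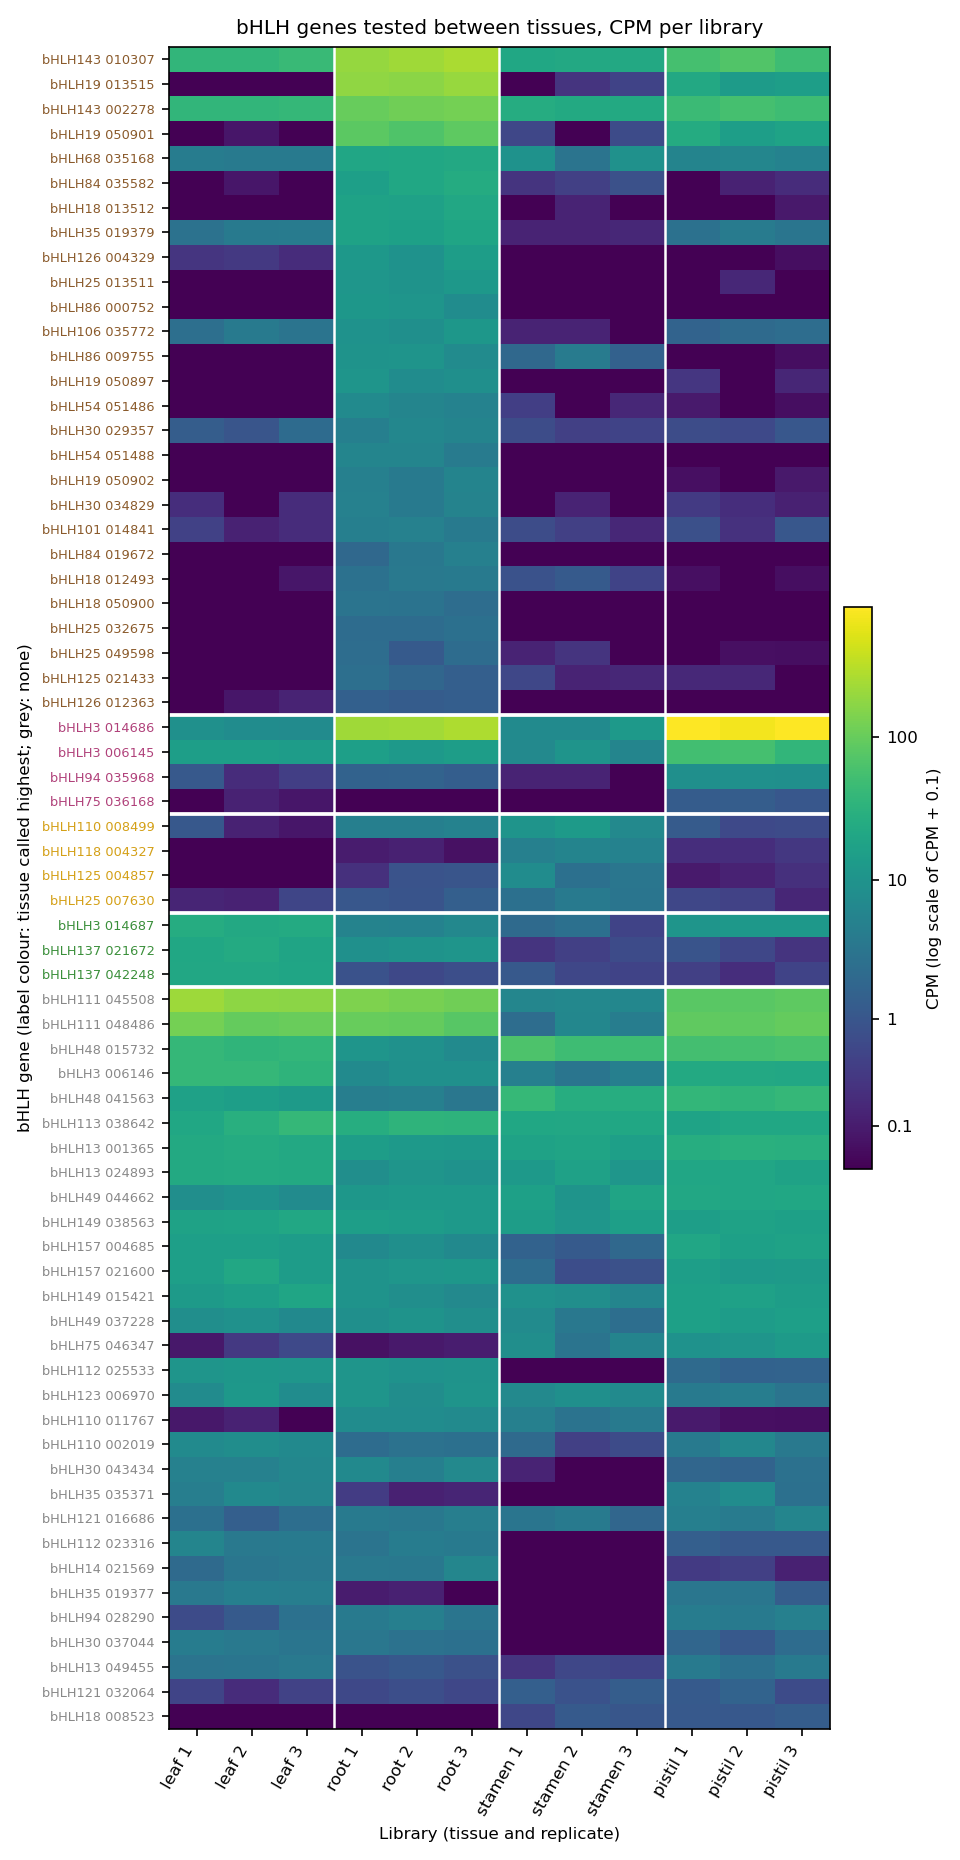
CPM of the 68 tested bHLH genes (rows, with the number of the matched title and the last digits of the gene name) in the 12 untreated libraries (columns), on a log colour scale of CPM with 0.1 added. Rows are grouped by the tissue called highest (label colour), and the 27 root rows are dark in leaf for most genes while bHLH3 (CqNL-6_014686) in pistil is the brightest row.

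Root hair factors were read in root almost alone. The 6 members of this class, bHLH86, bHLH84 and bHLH54 with 2 genes each, were all tested and all highest in root, against 10.4% of all genes tested. CqNL-6_000752, CqNL-6_019672 and CqNL-6_051488 had 0 reads in the other tissues. Root reads alone brought them into the test, so their calls say little beyond those reads. In Arabidopsis, bHLH86 belongs with the starters of root hairs (RSL1), and bHLH84 (RSL3) and bHLH54 (RSL4) act after them in hair growth. bHLH86 (CqNL-6_000752, chromosome 10) had 11.6, 10.8 and 7.75 CPM in the root libraries and 0 reads in leaf, stamen and pistil. That is at least 232-fold higher in root than in pistil and at least 66.7-fold higher than in stamen, against a floor of 3 reads over the 3 libraries of a tissue. Its candidate copy CqNL-6_009755 (chromosome 18) had 9.97, 10.2 and 7.44 CPM in root, close to the first copy, and 2, 4.11 and 1.51 CPM in stamen. All root libraries of that copy exceeded all stamen libraries, with a log2 fold change of 1.85 (SE 0.32, adjusted p 5.78e-05). Stamen was thus the single other tissue with more than 1 read of a bHLH86 gene.

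The bHLH84 copies differed in level. CqNL-6_035582 (chromosome 8) had 15.9, 20.7 and 25 CPM in root and at most 0.839 CPM in any other untreated library. CqNL-6_019672 (chromosome 14) had 2.02, 3.6 and 4.86 CPM in root, against 0 reads elsewhere. Neither gene overlapped between root and another tissue. Per length, the copies had 17.1 and 3.88 FPKM in root. The bHLH54 genes lay on the same chromosome, 16, and had 5.28 and 6.15 CPM in root on average, with 0 reads of CqNL-6_051488 in the 9 other untreated libraries and 7 reads of CqNL-6_051486.

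The class of bHLH18, bHLH19 and bHLH25 was the largest, with 18 genes. In Arabidopsis these factors (group IVa) respond to jasmonate and promote the breakdown of the iron regulator FIT in roots. Of 12 tested, 10 were highest in root and 1 in stamen, against 10.4% and 20.0% of all genes tested. Some of the 10, such as CqNL-6_032675 and CqNL-6_050900 with 0 reads in leaf, stamen and pistil, entered the test through root reads alone. The other 6 had too few reads, and the most any of these had was 31 reads in root. None of the 18 was tested in leaves after salt, since none had enough reads in leaf.

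bHLH19 (CqNL-6_013515) at the start of the chromosome 1 run had 177, 168 and 197 CPM in root, 22.3, 13.8 and 15.2 CPM in pistil, at most 0.503 CPM in stamen, against 0 reads in leaf. The root libraries lay far above the pistil libraries, with a log2 fold change of 3.4 (SE 0.18, adjusted p 4.31e-11). Against leaf, root was at least 2490-fold higher. Its mean of 732 FPKM in root was the highest of any member in any group, for a gene model of 345 bases. bHLH19 (CqNL-6_050901) in the chromosome 7 run had 84.4, 67.4 and 86.3 CPM in root, against 25.3, 15.5 and 18 CPM in pistil, with a log2 fold change of 2.02 (SE 0.18, adjusted p 1.06e-08). These 2 genes were the only members of the class above 2 CPM in pistil.

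Neighbours within the runs differed in level. On chromosome 1, mean FPKM in root in map order was 732 for bHLH19 (CqNL-6_013515), 1.14 for bHLH19 (CqNL-6_013513), 37.7 for bHLH18 (CqNL-6_013512) and 11.1 for bHLH25 (CqNL-6_013511). On chromosome 7 it was 0 for bHLH25 (CqNL-6_050903), 10.6 for bHLH19 (CqNL-6_050902), 130 for bHLH19 (CqNL-6_050901), 3.9 for bHLH18 (CqNL-6_050900), 0 for bHLH25 (CqNL-6_050899) and 37.3 for bHLH19 (CqNL-6_050897). Each run thus held 1 bHLH19 gene far above its neighbours in root. The lower genes were steady between replicates, with 17.4, 16.9 and 22 CPM for CqNL-6_013512, which had 0 reads in leaf, and was at least 258.6-fold higher in root than there. The bHLH25 gene CqNL-6_050903 had 10 reads in stamen and 0 in the other untreated tissues, and CqNL-6_050899 had none there.

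Outside these 2 runs the class held further root genes at low level. The bHLH25 copies CqNL-6_032675 and CqNL-6_049598 averaged 2.41 and 1.98 CPM in root, with 0 reads of the first and 5 of the second in the other untreated tissues. bHLH18 (CqNL-6_008523) instead had 0 reads in root and leaf, 0.57, 1.17 and 1.01 CPM in stamen, while pistil had 1.12, 1.1 and 1.34 CPM. Stamen and pistil overlapped for that gene, and no tissue was called.

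The 1 member of the class called highest in stamen was bHLH25 (CqNL-6_007630) on chromosome 3, with 2.71, 3.81 and 3.19 CPM in stamen, against 1.06, 0.931 and 1.4 CPM in root. Stamen and root did not overlap, with a log2 fold change of 1.52 (SE 0.42, adjusted p 0.00269). With the total library size the difference was -0.0048, so this call rests on the scaling.

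Most bHLH101 genes had few reads. In Arabidopsis, bHLH101 and its close relatives are switched on by iron shortage and pair with FIT to drive iron uptake, and bHLH121 acts upstream of them. Of 10 bHLH101 genes, 9 had 26 reads or fewer over all 15 libraries, 4 of these with 0 reads, and all 7 genes of the 2 bHLH101 runs were among them. The exception was CqNL-6_014841 on chromosome 9, with 4.74, 5.12 and 3.98 CPM in root against 0.809, 0.265 and 1.04 CPM in pistil. Root and pistil did not overlap, with a log2 fold change of 2.69 (SE 0.37, adjusted p 3.69e-06), and the gene was called highest in root. The 9 bHLH101 genes with few reads each shared their matched protein with another bHLH101 gene. How reads that match several such genes were counted was not stated, so few reads need not mean little expression. The bHLH121 copies were called in no tissue and averaged 3.98 and 0.645 CPM in root.

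Both bHLH143 genes were highest in root. They belong to the SAC51 class, which in Arabidopsis links the polyamine thermospermine to the growth of xylem. CqNL-6_010307 had 195, 226 and 257 CPM in root against 56.2, 69 and 49.1 CPM in pistil, the next tissue. The log2 fold change was 1.96 (SE 0.14, adjusted p 4.46e-10). Its copy CqNL-6_002278 had 100.2, 112.6 and 123.4 CPM in root against 46.5, 57.4 and 49.1 CPM in pistil, with a log2 fold change of 1.14 (SE 0.11, adjusted p 4.53e-08). The copies did not overlap in pistil or root with any other tissue, and the first was the higher in root, at 142 against 77.4 FPKM.

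Other root members were bHLH126, bHLH30, bHLH106, bHLH35, bHLH68 and 1 bHLH125 gene. bHLH126 (CqNL-6_004329) had 12, 9.53 and 14.6 CPM in root, against 12 reads in leaf, 0 in stamen and 1 in pistil. bHLH126 genes had 17.4 and 1.97 FPKM in root, the copy CqNL-6_012363 being the lower, at 1.46, 1.27 and 1.34 CPM in root. bHLH30 and bHLH106 belong in Arabidopsis to the TMO5 class, which pairs with LONESOME HIGHWAY to drive divisions of vascular cells. The bHLH30 genes formed 2 copy pairs with different patterns. CqNL-6_029357 and CqNL-6_034829 were highest in root, at 5.59 and 4.78 CPM on average, whereas CqNL-6_037044 and CqNL-6_043434 averaged 3.69 and 5.52 CPM in leaf, 2.95 and 6.18 CPM in root, with 0 and 0.0475 CPM in stamen. bHLH106 (CqNL-6_035772) averaged 9.91 CPM in root, against 3.18 CPM in leaf, a log2 fold change of 1.63 (SE 0.22, adjusted p 2.27e-06). bHLH68 (CqNL-6_035168) had 20.1, 21.1 and 22.2 CPM in root, against 9.7, 3.08 and 9.4 CPM in stamen, the next tissue, a log2 fold change of 1.52 (SE 0.24, adjusted p 1.12e-05).

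The bHLH35 genes split by their matched protein and not by position. CqNL-6_019379 on chromosome 14 was highest in root with 17.6, 16.5 and 19.5 CPM, against 2.91, 3.77 and 4.15 CPM in leaf, a log2 fold change of 2.3 (SE 0.18, adjusted p 1.76e-09). Its neighbour CqNL-6_019377, in the same run, had at most 0.127 CPM in any root library and 3.75, 4.82 and 4.65 CPM in leaf. The copy of that neighbour, CqNL-6_035371 on chromosome 8, was likewise low in root, at 0.403, 0.127 and 0.155 CPM, and had 4.59, 7.06 and 6.2 CPM in leaf. Per length the 3 genes had 26.2, 0.107 and 0.49 FPKM in root and 3.19, 3.66 and 7.66 FPKM in leaf, so that root was where they stood apart.

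In pistil, a bHLH3 gene stood far above the rest. In Arabidopsis bHLH3, bHLH13 and bHLH14 are repressors of jasmonate responses that counter the activator MYC2. bHLH3 (CqNL-6_014686, chromosome 9, 58832611 to 58858677) had 786, 675 and 802 CPM in pistil, 224, 229 and 269 CPM in root, 7.27, 7.33 and 12.6 CPM in stamen, against 8.96, 7.82 and 7.46 CPM in leaf. Pistil and root did not overlap, with a log2 fold change of 1.65 (SE 0.15, adjusted p 1.95e-08). Its copy CqNL-6_006145 on chromosome 2 had 51.9, 57.3 and 37.1 CPM in pistil and 15.2, 15.3 and 14.3 CPM in leaf, a log2 fold change of 1.71 (SE 0.17, adjusted p 4.75e-08). The copies were thus both highest in pistil, but at 435 and 49.1 FPKM, and the copy on chromosome 2 lacked the high level in root, with 15.7, 12.8 and 14.8 CPM. The deposited gene models differed too, with lengths of 3033 and 1742 bases.

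Each of these bHLH3 genes had a second bHLH3 gene beside it on the same strand, and those neighbours had another pattern. CqNL-6_014687 had 26, 22.5 and 24.0 CPM in leaf and 10.9, 11.9 and 11.9 CPM in pistil, and was called highest in leaf (log2 fold change 1.06, SE 0.17, adjusted p 1.78e-05). CqNL-6_006146 had 40.0, 39.6 and 34.4 CPM in leaf and 23, 22.8 and 21.6 CPM in pistil, with a log2 fold change of 0.76 (SE 0.12, adjusted p 2.08e-05), under the minimum for a call. In both pairs leaf was above pistil in 1 neighbour and below it in the other with TMM. With the total library size the leaf over pistil difference was 0.005 for CqNL-6_014687 and -0.3 for CqNL-6_006146.

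**Figure D3:**
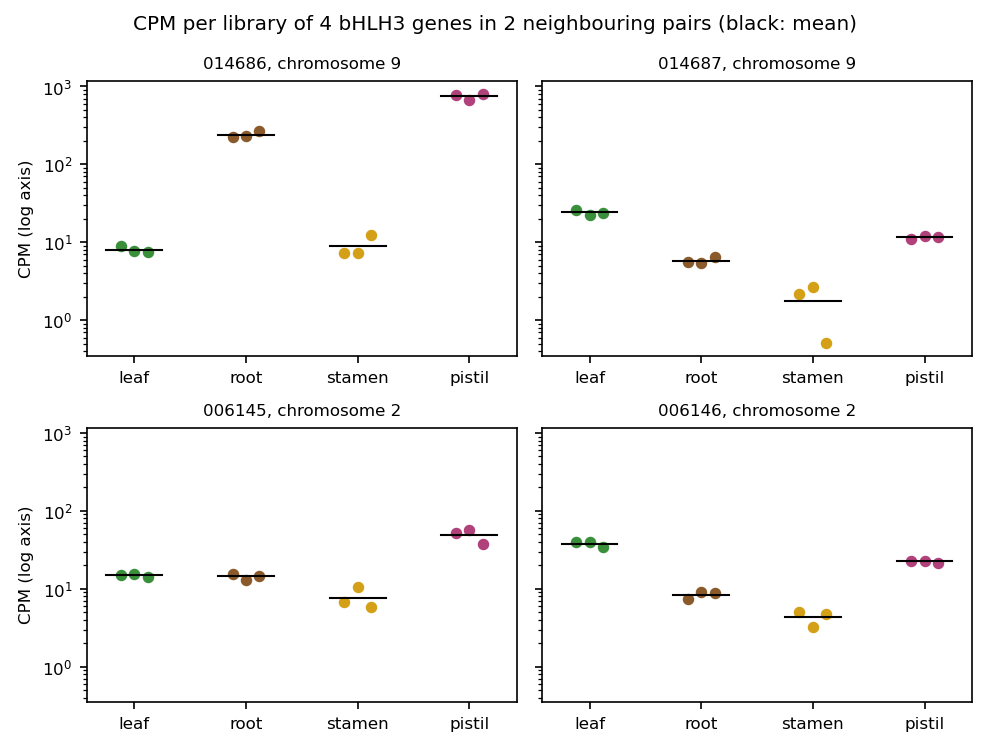
CPM of 4 bHLH3 genes in each untreated library (points, log axis) with the tissue mean (line), for leaf, root, stamen and pistil. The left panels are the genes highest in pistil (786, 675 and 802 CPM for CqNL-6_014686) and the right panels their neighbours, with the highest mean in leaf, on chromosome 9 (top) and chromosome 2 (bottom).

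The other pistil members were 1 bHLH94 and 1 bHLH75 gene. bHLH94 belongs to the relatives of the stomatal factors. CqNL-6_035968 had 8.72, 9.15 and 8.65 CPM in pistil and 1.56, 1.65 and 1.34 CPM in root, a log2 fold change of 2.53 (SE 0.27, adjusted p 1.62e-07). Its copy CqNL-6_028290 had 4.23, 3.98 and 4.97 CPM in pistil but also 3.93, 4.83 and 3.21 CPM in root, and these overlapped. bHLH75 belongs to the joint class of cryptochrome-interacting (CIB) and brassinosteroid-linked (BEE) factors. It was low in pistil in CqNL-6_036168, at 1.26, 1.33 and 1.04 CPM, with 3 reads in leaf and 0 in root and stamen. The ratio of pistil to leaf was 16.7 (exact counting interval 5.53 to 82.7). Its copy CqNL-6_046347 had 9.76, 10.8 and 13.1 CPM in pistil and 8.41, 3.08 and 5.71 CPM in stamen, a log2 fold change of 0.96 (SE 0.29, adjusted p 0.00504) that fell short of the minimum.

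Stamen had few bHLH members of its own. bHLH118 (CqNL-6_004327) had 4.99, 5.72 and 5.2 CPM in stamen, at most 0.334 CPM in pistil and 0 reads in leaf, with a log2 fold change of 4.3 over pistil (SE 0.4, adjusted p 3.29e-08). The next member of its run was the root gene bHLH126 (CqNL-6_004329). bHLH125 (CqNL-6_004857) had 7.84, 2.64 and 3.36 CPM in stamen, against 0.252, 0.889 and 0.982 CPM in root, a log2 fold change of 2.69 (SE 0.51, adjusted p 0.000137). Its copy CqNL-6_021433 was highest in root instead, with 2.57, 1.82 and 1.45 CPM there and 0.57, 0.147 and 0.168 CPM in stamen. This was the only pair of copies called in different tissues. bHLH110 (CqNL-6_008499) had 10.6, 13.2 and 6.71 CPM in stamen, against 4.74, 4.74 and 5.38 CPM in root, a log2 fold change of 1.04 (SE 0.34, adjusted p 0.00878). That call was lost without stamen replicate 1 (log2 fold change 0.89, adjusted p 0.0464), without stamen replicate 2 (0.68, adjusted p 0.112), with upper quartile scaling (0.85) and with the total library size (-0.49). Its copy CqNL-6_011767 was higher in root, at 7.91, 7.92 and 7.34 CPM, against 4.99, 2.93 and 4.03 CPM in stamen, but the log2 fold change of 0.95 (SE 0.25, adjusted p 0.00211) was under the minimum.

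In leaf, the bHLH137 copies stood out. In Arabidopsis bHLH137 belongs to the same broad class as the cryptochrome-interacting (CIB) and brassinosteroid-linked (BEE) factors. CqNL-6_042248 had 21.7, 22 and 19.5 CPM in leaf and at most 1.14 CPM in any other untreated library, a log2 fold change of 4.79 over stamen (SE 0.29, adjusted p 1.57e-11). Its copy CqNL-6_021672 had much the same level in leaf, 21.4, 24.1 and 19.1 CPM, but also 9.17, 10.1 and 10.6 CPM in root. Leaf and root did not overlap for that copy, with a log2 fold change of 1.11 (SE 0.18, adjusted p 1.84e-05), which was 0.98 with upper quartile scaling and 0.38 (adjusted p 0.0662) with the total library size.

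Among members called in no tissue, the bHLH111 copies had the highest mean FPKM over the 15 libraries, 65.3 and 59.6. CqNL-6_045508 had 213, 174 and 170 CPM in leaf, 139, 125 and 113 CPM in root, 81.5, 80.0 and 86.5 CPM in pistil and 5.99, 6.45 and 6.38 CPM in stamen. CqNL-6_048486 had 124, 94.9 and 102 CPM in leaf, 100, 94.8 and 77.3 CPM in root, 89.7, 87.3 and 95.3 CPM in pistil and 2.42, 6.3 and 4.36 CPM in stamen. Stamen was lower than the other 3 tissues in every library of both genes, while leaf over root was 0.56 (adjusted p 0.000254) for CqNL-6_045508 and turned to -0.17 with the total library size. bHLH48, known in Arabidopsis for promoting flowering, was lowest in root. CqNL-6_015732 had 65.5, 48.4 and 49.7 CPM in stamen, 54.2, 56.4 and 60.3 CPM in pistil, 40.2, 35.8 and 38.1 CPM in leaf and 10.7, 9.19 and 7.34 CPM in root. Its copy CqNL-6_041563 showed root as the lowest tissue as well, with 4.53, 4.87 and 3.41 CPM.

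Stamen was also the lowest tissue of the bHLH157 and bHLH112 copies. bHLH157 belongs to the LONESOME HIGHWAY class of vascular regulators, and its copies averaged 1.58 and 1.28 CPM in stamen, against 15.3 and 17.3 CPM in leaf. Both bHLH112 genes had 0 reads in stamen, with 186 and 465 reads in leaf and 239 and 635 reads in root. bHLH113 (CqNL-6_038642) had no call and averaged 31.7 CPM in root, 29.7 in leaf, 21.1 in stamen and 19.96 in pistil with TMM. The log2 difference of root over leaf was 0.09 (adjusted p 0.649) with TMM and 0.82 (adjusted p 0.00014) with the total library size.

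The 30 members not tested between tissues were 6 of the bHLH18, bHLH19 and bHLH25 class, 9 bHLH101 genes, 4 bHLH36 genes, 3 bHLH118 genes, 2 each of bHLH61 and bHLH95, and 1 each of bHLH14, bHLH30, bHLH110 and bHLH140. Among them bHLH110 (CqNL-6_010565) had the most reads, 59 over the 15 libraries. The bHLH61 genes, relatives in Arabidopsis of the cold regulator ICE1, had 10 and 13 reads in the untreated leaf libraries and at most 2 in another untreated tissue. The bHLH36 genes had 1 to 21 reads over the 15 libraries.

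In most tested pairs, both copies had their highest mean in the same tissue. Of 26 candidate pairs, 22 had both genes tested, and in 16 the highest mean lay in the same tissue. That order of means is a description, and it depends on scaling for some members. Agreement between other pairs of genes is not given here, and how reads were shared between near-identical copies is uncertain. Both copies had the same call in 8 pairs and no call in 9, 1 copy alone was called in 4, and the bHLH125 copies were called in different tissues. In the 22 pairs with both genes tested, mean FPKM over the 15 libraries differed between copies by 1.01 to 12.6 times, with a median of 1.45.

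The salt comparison set NaCl leaves against leaves. Of the 39 members with enough reads, 15 (38.5%) were higher in NaCl leaves, against 24.0% of the 29201 genes tested, and 9 (23.1%) were lower, against 22.8%. The change was at least 2-fold for 9 of the higher and 4 of the lower members. The share of all genes at that minimum is not given here, so these 2 counts cannot be set against it. The median log2 fold change was 0.1 over the members and 0.04 over all genes. With the total library size, which moved the median of all genes to 0.29, 17 members (43.6%) were higher, against 35.8% of all genes, and 5 (12.8%) lower, against 15.2%. Members that did not pass had log2 fold changes from -0.53 to 0.85. The remaining 59 members, among them all root hair and bHLH18, bHLH19 and bHLH25 genes, were not tested. In the same libraries, 22 of 28 tested leaf markers were lower and 0 higher in NaCl leaves, with summed levels of 24650 to 29580 CPM in NaCl leaves and 33470 to 38500 CPM in leaves, and their part in the changes of members was not tested.

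**Figure D4:**
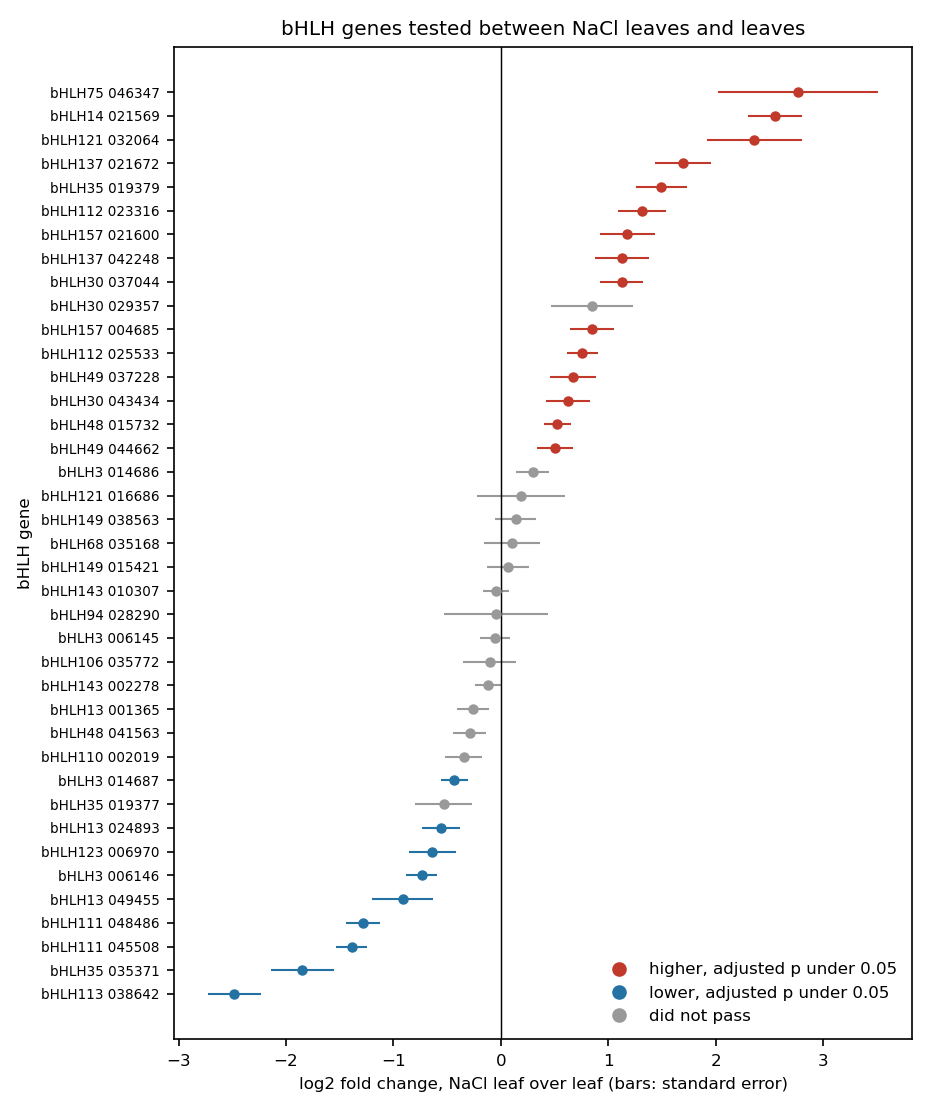
log2 fold change of NaCl leaf over leaf (x axis, bars are the standard error) for the 39 tested bHLH genes (rows). Red marks the 15 genes higher in NaCl leaves, blue the 9 lower and grey those that did not pass at an adjusted p of 0.05.

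Of 7 tested members of the CIB and BEE class, 6 were higher after salt and 0 lower, against 24.0% and 22.8% of all genes tested. Their median log2 fold change was 0.67, and the bHLH49 and bHLH75 calls among them rest on few libraries, as given below. bHLH137 (CqNL-6_021672) had 44.1, 94.2 and 53.5 CPM in NaCl leaves, against 19.8, 22.1 and 17.4 CPM in leaves. The groups did not overlap, and the fold change was 3.23 (log2 1.69, SE 0.26, adjusted p 0.000819). Its copy CqNL-6_042248 had 25.6, 56.8 and 44.6 CPM in NaCl leaves, against 20.1, 20.2 and 17.8 CPM in leaves, a fold change of 2.19 (log2 1.13, SE 0.25, adjusted p 0.00503). NaCl leaf replicate 2 was the highest library for both copies. CPM of leaf differ slightly from those above because each comparison was scaled on its own libraries.

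The other members of the class changed less or at low level. bHLH48 (CqNL-6_015732) had 54.7, 52.6 and 43.8 CPM in NaCl leaves, against 37.3, 32.8 and 34.8 CPM in leaves, a fold change of 1.44 (adjusted p 0.00782). Its copy CqNL-6_041563 did not pass, with a log2 fold change of -0.29 (SE 0.15, adjusted p 0.151), and was the 1 member of the class below 0. The bHLH49 copies CqNL-6_037228 and CqNL-6_044662 were higher by 1.59 and 1.42 times (adjusted p 0.0275 and 0.0329). Both calls rest on few libraries. For CqNL-6_037228 the call was lost without any 1 library but NaCl leaf replicate 3 (log2 fold change 0.54 to 0.75, adjusted p 0.0528 to 0.106). For CqNL-6_044662 the call was lost without NaCl leaf replicate 1 or any of the leaf replicates (0.39 to 0.58, adjusted p 0.0509 to 0.118) and with DESeq2 (adjusted p 0.0533). bHLH75 (CqNL-6_046347) had 4.5, 0.967 and 1.38 CPM in NaCl leaves, against 0.071, 0.32 and 0.579 CPM in leaves (log2 2.77, SE 0.75, adjusted p 0.013), with NaCl leaf replicate 1 far above the other libraries. Without that library the log2 fold change was 1.8 (adjusted p 0.0496). The call was lost without leaf replicate 1 (2.32, adjusted p 0.0501) or leaf replicate 2 (2.74, adjusted p 0.053).

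Both copies of bHLH157, the 2 members of the LONESOME HIGHWAY class, were higher. CqNL-6_021600 had 30.6, 51.4 and 26 CPM in NaCl leaves, against 14.9, 19.7 and 13.1 CPM in leaves, a fold change of 2.27 (log2 1.18, SE 0.26, adjusted p 0.00494). CqNL-6_004685 had 26, 32.1 and 17.8 CPM in NaCl leaves, against 14.6, 14.5 and 13.1 CPM in leaves, a fold change of 1.8 (log2 0.85, SE 0.2, adjusted p 0.00743). Neither gene overlapped between the groups. Of 4 tested bHLH30 and bHLH106 genes, 2 were higher, against 24.0% of all genes tested. bHLH30 (CqNL-6_037044) had 8.39, 6.95 and 6.88 CPM in NaCl leaves, against 3.9, 3.33 and 2.96 CPM in leaves, a fold change of 2.18 (log2 1.13, SE 0.2, adjusted p 0.00158). Its copy CqNL-6_043434 was higher by 1.55 times (adjusted p 0.0293), a call that was lost without NaCl leaf replicate 2 (log2 fold change 0.46, adjusted p 0.0936), leaf replicate 1 (0.57, 0.0939) or leaf replicate 2 (0.57, 0.103) and with the replicate block (0.62, 0.0549). The third tested bHLH30 gene, CqNL-6_029357, and bHLH106 (CqNL-6_035772) did not pass, with log2 fold changes of 0.85 (SE 0.38) and -0.1 (SE 0.25).

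The repressors of jasmonate responses moved in both directions. Of 8 tested, 1 was higher and 4 lower, against 24.0% and 22.8% of all genes tested. bHLH14 (CqNL-6_021569) had 21.3, 14.3 and 14 CPM in NaCl leaves, against 1.99, 3.07 and 3.34 CPM in leaves. All NaCl leaf libraries lay far above the highest leaf library, and the fold change was 5.87 (log2 2.55, SE 0.25, adjusted p 9.94e-05). Its copy CqNL-6_004713 had too few reads for the test, with 36 reads in the 3 NaCl leaf libraries and 3 in the leaf libraries.

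The lower members of this class were bHLH3 and bHLH13 genes. bHLH3 (CqNL-6_006146) had 20.02, 18.37 and 24.6 CPM in NaCl leaves, against 37, 36.3 and 31.4 CPM in leaves (log2 -0.73, SE 0.14, adjusted p 0.00285). Its copy CqNL-6_014687 had 15.3, 16.4 and 17.6 CPM in NaCl leaves, against 24.1, 20.6 and 21.9 CPM in leaves (log2 -0.43, SE 0.13, adjusted p 0.0201). These are the leaf-high genes of the neighbouring pairs. The pistil-high neighbours CqNL-6_006145 and CqNL-6_014686 did not pass, with log2 fold changes of -0.05 (SE 0.14) and 0.3 (SE 0.16), and CqNL-6_014686 was higher with the total library size (0.55, adjusted p 0.0157). Whether neighbours differ in response was not tested. bHLH13 was lower in CqNL-6_049455 (log2 -0.91, SE 0.29, adjusted p 0.0255) and CqNL-6_024893 (log2 -0.55, SE 0.18, adjusted p 0.0283), and did not pass in CqNL-6_001365 (log2 -0.26, SE 0.15).

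Several of these calls rest on few libraries. CqNL-6_014687 was not called without NaCl leaf replicate 1, leaf replicate 1 or leaf replicate 3 (log2 fold change -0.45 to -0.38, adjusted p 0.0515 to 0.0716). CqNL-6_024893 was not called without any 1 leaf replicate (-0.57 to -0.55, adjusted p 0.0691 to 0.0833), and CqNL-6_049455 without any 1 leaf replicate or NaCl leaf replicate 1 (-0.96 to -0.72, adjusted p 0.0518 to 0.0859). With the total library size none of these 3 passed (-0.66 to -0.18, adjusted p 0.0756 to 0.247).

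Outside the classes above, bHLH112 and bHLH35 were higher and bHLH113, bHLH111 and another bHLH35 gene lower. bHLH112 is known in Arabidopsis as a factor induced by salt and drought. Its copies were both higher, at 9.95, 9.06 and 12 CPM in NaCl leaves against 5.46, 3.4 and 3.6 CPM in leaves for CqNL-6_023316 (log2 1.32, SE 0.22, adjusted p 0.00132). CqNL-6_025533 had 17.8, 15.2 and 19.3 CPM in NaCl leaves, against 10.2, 10.6 and 10.1 CPM in leaves (log2 0.76, SE 0.14, adjusted p 0.00211). The groups did not overlap for either copy.

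bHLH35 genes changed in opposite directions. The root gene CqNL-6_019379 had 12.1, 7.37 and 8.72 CPM in NaCl leaves, against 2.7, 3.46 and 3.79 CPM in leaves, a fold change of 2.82 (log2 1.5, SE 0.24, adjusted p 0.000961). CqNL-6_035371 had 1.14, 1.33 and 2.1 CPM in NaCl leaves, against 4.26, 6.47 and 5.66 CPM in leaves, 3.6-fold lower (log2 -1.85, SE 0.29, adjusted p 0.000982). The groups did not overlap for either gene. CqNL-6_019377, the copy of the falling gene and the neighbour of the rising one, did not pass (log2 -0.53, SE 0.26, adjusted p 0.126).

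bHLH113 (CqNL-6_038642) fell the most, with 3.96, 4.59 and 6.16 CPM in NaCl leaves against 19.7, 26.4 and 35.8 CPM in leaves. It was 5.58-fold lower (log2 -2.48, SE 0.25, adjusted p 0.00011). The bHLH111 copies, the most abundant members in leaf by FPKM, fell as a pair. CqNL-6_045508 had 56.6, 64.7 and 74.3 CPM in NaCl leaves, against 198, 159 and 155 CPM in leaves, 2.62-fold lower (log2 -1.39, SE 0.15, adjusted p 0.000144). CqNL-6_048486 had 33.9, 41.8 and 45.5 CPM in NaCl leaves, against 115, 87 and 92.9 CPM in leaves, 2.43-fold lower (log2 -1.28, SE 0.16, adjusted p 0.000254). No library of either group overlapped the other for these 3 genes. bHLH123 (CqNL-6_006970) was lower by 1.56 times (log2 -0.64, SE 0.22, adjusted p 0.0362), and was not called without leaf replicate 2 (-0.4, adjusted p 0.159), NaCl leaf replicate 1 (-0.58, 0.0897) or NaCl leaf replicate 2 (-0.64, 0.0602) or with the total library size (-0.39, 0.165).

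**Figure D5:**
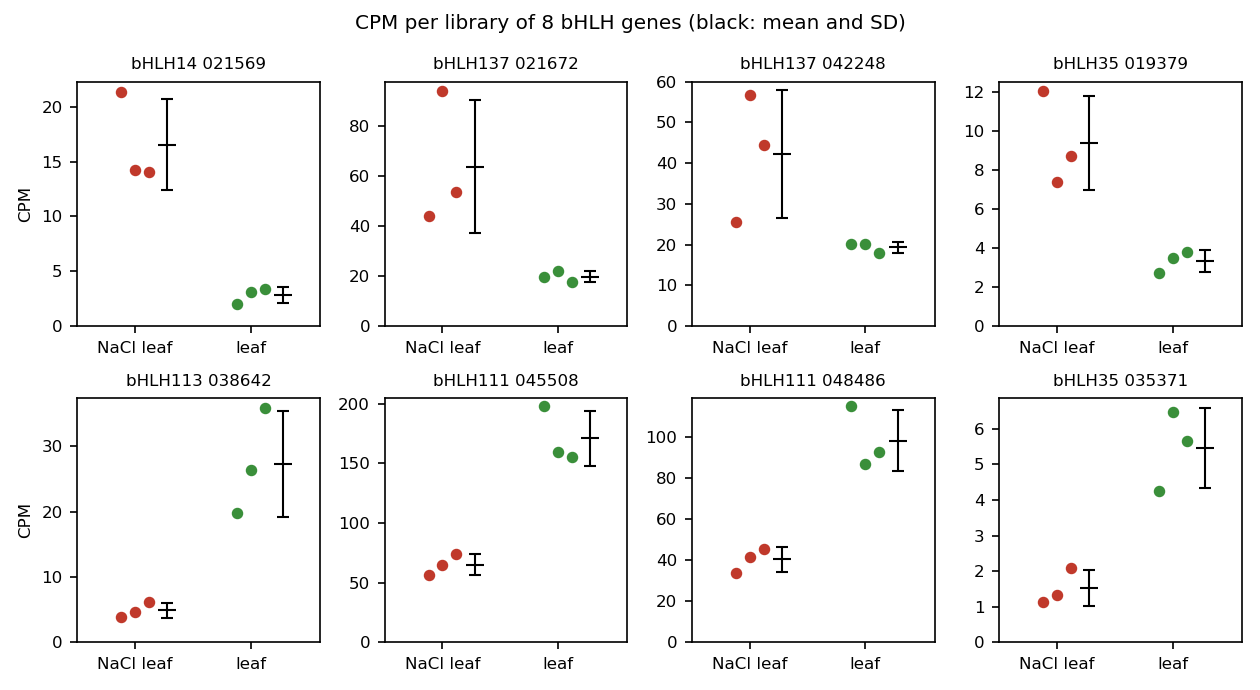
CPM per library of 8 bHLH genes in NaCl leaf (red, left) and leaf (green, right), with the mean and SD in black. NaCl leaf libraries lie above leaf libraries in the top row (for bHLH14, CqNL-6_021569, 14 to 21.3 CPM against 1.99 to 3.34 CPM) and below them in the bottom row.

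Among iron regulators, bHLH121 (CqNL-6_032064) was higher, with 2.1, 2.42 and 1.38 CPM in NaCl leaves, against 0.497, 0.192 and 0.45 CPM in leaves (log2 2.36, SE 0.44, adjusted p 0.00215). The groups did not overlap, and the level stayed low. Its copy CqNL-6_016686 did not pass, with 3.54, 1.39 and 1.9 CPM in NaCl leaves against 2.48, 1.28 and 2.25 CPM in leaves. The bHLH143 copies, which had 33.4 to 36.4 CPM in NaCl leaves and 33.8 to 40.2 CPM in leaves for CqNL-6_010307, did not pass (log2 -0.04, SE 0.12, and -0.11, SE 0.13). Nor did the bHLH149 copies, atypical helix-loop-helix proteins of the IBH1 kind, with log2 fold changes of 0.07 and 0.14.

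Across copies, salt calls ran the same way or in 1 copy only. Of 13 pairs with both copies tested, 5 had both higher (bHLH137, bHLH157, bHLH112, bHLH30 and bHLH49), 2 both lower (bHLH111 and 1 bHLH3 pair), 3 had 1 copy called and 3 none. In 0 pairs were the copies called in opposite directions.

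Genes of the same family titled by another name, and genes of 2 linked pathways, were read from lists made by title. Of 20 bHLH factors titled by another name, 14 were tested between tissues. Root was highest for 5, leaf for 3, pistil for 3 and stamen for 1, against 10.4%, 11.1%, 6.03% and 20.0% of all genes tested. CqNL-6_047621, titled as FIT, the main regulator of iron uptake in Arabidopsis roots, averaged 24.7 CPM in root and had 0 reads in leaf, stamen and pistil. Both PRE6 genes were highest in pistil, at 11.9 and 9.71 CPM, and both FAMA-like genes, which act at the last step of guard cell formation in Arabidopsis, in leaf. After salt, 0 of 7 tested were higher and 3 lower, against 24.0% and 22.8% of all genes tested. UNE10 was among the lower (CqNL-6_001823, log2 -1.19, SE 0.28, adjusted p 0.00696).

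Of 13 genes of iron uptake, transport and storage, 3 were tested after salt, with 0 higher and 2 lower. Over all genes tested, 24.0% were higher and 22.8% lower. Ferritin-3 (CqNL-6_039834), an iron store of chloroplasts, had 42.9, 33.7 and 56.4 CPM in NaCl leaves, against 483, 97.2 and 147 CPM in leaves (log2 -2.45, SE 0.52, adjusted p 0.0043). The groups did not overlap, although leaf replicate 1 was far above the other leaf libraries. Between tissues 8 were tested, with 1 highest in leaf, 1 in root and 4 in stamen, against 11.1%, 10.4% and 20.0% of all genes tested. Of 39 genes of jasmonate synthesis and repression, 19 were tested after salt, with 4 higher and 7 lower, against 24.0% and 22.8% of all genes tested, and a median log2 fold change of 0.26. Chloroplast lipoxygenase 2-1 genes went opposite ways, CqNL-6_015064 higher (log2 2.67, SE 0.37, adjusted p 0.000521) and CqNL-6_044386 lower (log2 -2.26, SE 0.4, adjusted p 0.00166). JAR1 (CqNL-6_047522), which makes the active form of the hormone, was lower (log2 -1.81, SE 0.32, adjusted p 0.00167). The list includes lipoxygenase homology domain proteins, which are not enzymes of jasmonate synthesis. Of these, CqNL-6_008867 and CqNL-6_011416 were among the lower after salt. Between tissues 27 were tested, with 8 highest in root and 4 each in leaf, stamen and pistil. The root genes include the homology domain genes CqNL-6_008867, CqNL-6_011416, CqNL-6_038947 and CqNL-6_054093. Over all genes tested, 10.4% were highest in root, 11.1% in leaf, 20.0% in stamen and 6.03% in pistil.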

How the data were processed

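HISAT2 (2.1.0 in the submitters' processing notes) placed the filtered reads on the NL-6 assembly, and HTSeq (version and strand setting not given in the sources read here) gave the deposited counts, whole numbers without normalization. The authors derived the deposited FPKM from them, and a recalculation from count, length and library total differed by at most 4.67e-06 FPKM. Members and lists were chosen with earlier results of these data known. Of the 98 gene names 0 matched the RefSeq gene table, which is of another assembly, so titles are those deposited, and no sequence is shown.

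Counts were tested with edgeR 4.0.16 (quasi-likelihood test, filterByExpr, TMM) in R 4.3.3, on 6 leaf libraries for salt and 12 untreated libraries for tissues, with Benjamini-Hochberg adjustment over all genes tested. P-values measure the spread between pooled samples, whose independence the labels do not state. Named were salt-called members of at least 1 CPM (up to 12 each way), up to 6 called members per tissue, the member of highest FPKM in each class, and their copies. Other members with values, such as those of the long runs, were chosen after their values were seen. In counts simulated for NaCl leaf against leaf (28274 genes), the test found 59 of the 100 genes given a 2-fold change and 95 of the 100 given 4-fold, plus 14 others. For highest in stamen (33475 genes) it found 10 of 50 at 2-fold, 50 of 50 at 4-fold and 0 others. That rule asks for at least 2-fold over each other tissue, so genes set at exactly 2-fold mostly fall short by design. Only well-read genes were changed, and the simulated tissues otherwise shared the same levels, unlike the data. Alternatives were DESeq2 1.42.0, other scalings and filters, the replicate number as a block, all 15 libraries and leaving out each library. Floors of 3 reads and counting intervals cover counting error only.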

Additional observations from a re-analysis of the deposited data

How the results depend on the processing

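The root count was the steadiest, at 27 to 30 members under every alternative. With the total library size, 5 members were lower after salt in place of 9, and 15, 2 and 1 were highest in pistil, stamen and leaf in place of 4, 4 and 3. Upper quartile scaling gave 1 in leaf. A 2-fold minimum for salt left 9 higher and 4 lower, and no minimum between tissues gave 6 in leaf and 8 in pistil. Shares of all genes at these minimum settings are not given here. Leaving out 1 library gave 12 to 15 higher and 6 to 9 lower members after salt, and 27 to 28 highest in root, 4 to 5 in pistil, 3 to 4 in stamen and 3 in leaf. Asking for 5 reads in each replicate left 29 members in stamen. Differences of the top tissue over the next turned below 0 with the total library size for 15 of the 68 tested members. Those of named members that passed the test under either scaling were -1.80 for bHLH121 (CqNL-6_032064, stamen over pistil), -0.74 for bHLH157 (CqNL-6_021600), -0.86 for bHLH35 (CqNL-6_035371), -0.82 for bHLH111 (CqNL-6_048486), -0.30 for bHLH3 (CqNL-6_006146), -0.79 for bHLH13 (CqNL-6_024893) and -0.83 for bHLH149 (CqNL-6_038563), each leaf over pistil. They were -0.59 for bHLH112 (CqNL-6_025533) and -0.17 for bHLH111 (CqNL-6_045508), leaf over root, and -0.0048 for bHLH25 (CqNL-6_007630) and -0.49 for bHLH110 (CqNL-6_008499), stamen over root. The cause was not tested. The replicate numbers did not pair the samples (correlations of same-numbered libraries -0.111 to 0.0142 for salt and -0.0581 to 0.0492 between tissues). With the replicate block, 14 members were higher and 9 lower after salt, and 27 were highest in root, 4 in pistil, 4 in stamen and 3 in leaf. In leaves, 59 members had too few reads for the salt test.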
